A study of Mus musculus with 12 samples.

Results

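The genes described here are 40 lysosomal hydrolases and lysosomal membrane proteins, chosen by symbol from the table of 54532 genes. All 40 were found and all 40 had enough counts to be tested, among 14506 genes tested in all. They were measured by RNA-seq in resident peritoneal macrophages, the macrophages that live in the abdominal cavity, of C57BL/6 mice; the labels give no genotype or age. In all 4 groups the cells spent 24 h in DMEM whose buffer was HEPES or MOPS, and some then received LPS (10 ng/ml, 2 h), with 3 libraries in each of the groups HEPES, MOPS, HEPES with LPS and MOPS with LPS. LPS is the bacterial cell-wall component sensed by Toll-like receptor TLR4. The design names pH 6.8 and 7.4 and lists MOPS before HEPES, and only that order pairs pH 6.8 with MOPS, so buffer and pH cannot be told apart and the comparison is written as MOPS against HEPES. The labels do not say whether the 3 libraries of a group came from separate mice or cultures, so p-values measure the spread between libraries, which may be technical.

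Lysosomes are acidic organelles in which macrophages break down engulfed and recycled material. Their soluble enzymes are made in the endoplasmic reticulum and carried to the lysosome by sorting receptors, and most work best at acidic pH. Membrane glycoproteins line the organelle, and transporters carry the products, such as cholesterol and cystine, out to the cytosol. Many lysosomal genes carry in their promoters a palindromic E-box that the transcription factor TFEB and its relatives can bind.

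That E-box is shown first because it is a sequence feature known from the promoters of many lysosomal genes. Its core, CACGTG, was searched on both strands in RefSeq promoter windows of the GRCm38.p6 build, from 250 bases before to 50 bases after each annotated start. Windows were given for 36 of the 40 genes, and 10 of the 36 (27.8%) held CACGTG: Arsa, Ctsa, Ctsd, Ctsl, Gaa, Gla, Glb1, Lamp1, Lgmn and Naglu. Of all 27025 genes with a window, 8.09% held it. That background was not limited to the 14506 genes tested, so it includes genes with few or no counts here. The longer form TCACGTGA, which contains the core, was in 3 of the 36 genes (8.33%; Ctsa, Ctsd and Gla) and in 1.12% of all genes. Genes with several windows were counted once, with any window. The 150 bases before the start are printed for 6 genes, with CACGTG in capitals: Lamp1 held the most copies, 4 in this stretch, Ctsd encodes one of the most abundant transcripts and holds the longer form, and Naglu, Lipa, Scarb2 and Smpd1 were among the genes that differed most between the conditions.
Lamp1 (chr8:13159011-13159160, plus strand): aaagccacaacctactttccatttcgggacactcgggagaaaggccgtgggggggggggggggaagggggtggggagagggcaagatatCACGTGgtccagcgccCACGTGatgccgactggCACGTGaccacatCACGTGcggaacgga
Ctsd (chr7:142387828-142387977, minus strand): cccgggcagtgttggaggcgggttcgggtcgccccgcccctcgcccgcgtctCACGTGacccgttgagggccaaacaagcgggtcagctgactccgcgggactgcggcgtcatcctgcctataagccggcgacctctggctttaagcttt
Naglu (chr11:101069944-101070093, plus strand): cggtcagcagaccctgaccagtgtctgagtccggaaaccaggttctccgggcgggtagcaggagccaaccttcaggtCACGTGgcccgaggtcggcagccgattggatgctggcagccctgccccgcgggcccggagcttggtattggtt
Lipa (chr19:34527475-34527624, minus strand): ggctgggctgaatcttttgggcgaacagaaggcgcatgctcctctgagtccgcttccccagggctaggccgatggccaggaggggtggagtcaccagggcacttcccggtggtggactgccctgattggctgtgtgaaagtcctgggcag
Scarb2 (chr5:92505658-92505807, minus strand): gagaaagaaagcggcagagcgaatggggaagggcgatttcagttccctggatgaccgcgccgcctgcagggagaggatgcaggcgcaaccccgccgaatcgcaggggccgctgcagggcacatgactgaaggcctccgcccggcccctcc
Smpd1 (chr7:105554210-105554359, plus strand): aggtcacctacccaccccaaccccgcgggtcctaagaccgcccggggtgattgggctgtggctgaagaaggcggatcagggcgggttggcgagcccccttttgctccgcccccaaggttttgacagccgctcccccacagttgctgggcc
Lipa, Scarb2 and Smpd1 held no CACGTG in the whole window, which says only that these letters are not there. The RefSeq start need not be the end of the gene in the count table. The printed stretch lies inside the gene's span there for Scarb2 and Ctsd, and partly inside it for Naglu. A match is a run of letters and no binding was measured. The 10 genes with the hexamer had a median log2 change between the media without LPS of -0.34 (range -0.58 to 0.13) and the 26 without it -0.35 (range -0.85 to 1.11), so the medians lay close together.

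Several of these genes were among the most highly expressed of the macrophage. Levels are given as CPM, a gene's counts relative to the library's total after TMM scaling (trimmed means that correct the total for composition), and, where genes are compared with each other, as CPM per kilobase of gene length. Psap, which encodes the precursor of the saposins that help lipid hydrolases reach their substrates, was the highest of the 40, at 6803 ± 92.6 CPM per kilobase in HEPES (mean ± SD, n = 3). The aspartic protease gene Ctsd followed at 2975 ± 46.2, then the cysteine protease genes Ctsb at 1762 ± 28.6 and Ctss at 1603 ± 49.5, and then Cd68, a heavily glycosylated membrane protein used as a macrophage marker, at 1249 ± 15.3 CPM per kilobase. Psap, Ctsd and Ctsb stood at ranks 3, 6 and 10 of 14506 genes, and 25 of the 40 genes were among the first 1000. The median level was 70.7 CPM per kilobase for the 40 genes and 3.72 for all genes tested. At the low end stood Ctsk, the collagen-degrading cathepsin of osteoclasts, at 3.88 ± 0.316, and Arsb, a sulfatase of dermatan sulfate, at 1.40 ± 0.149 CPM per kilobase.

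**Figure D1:**
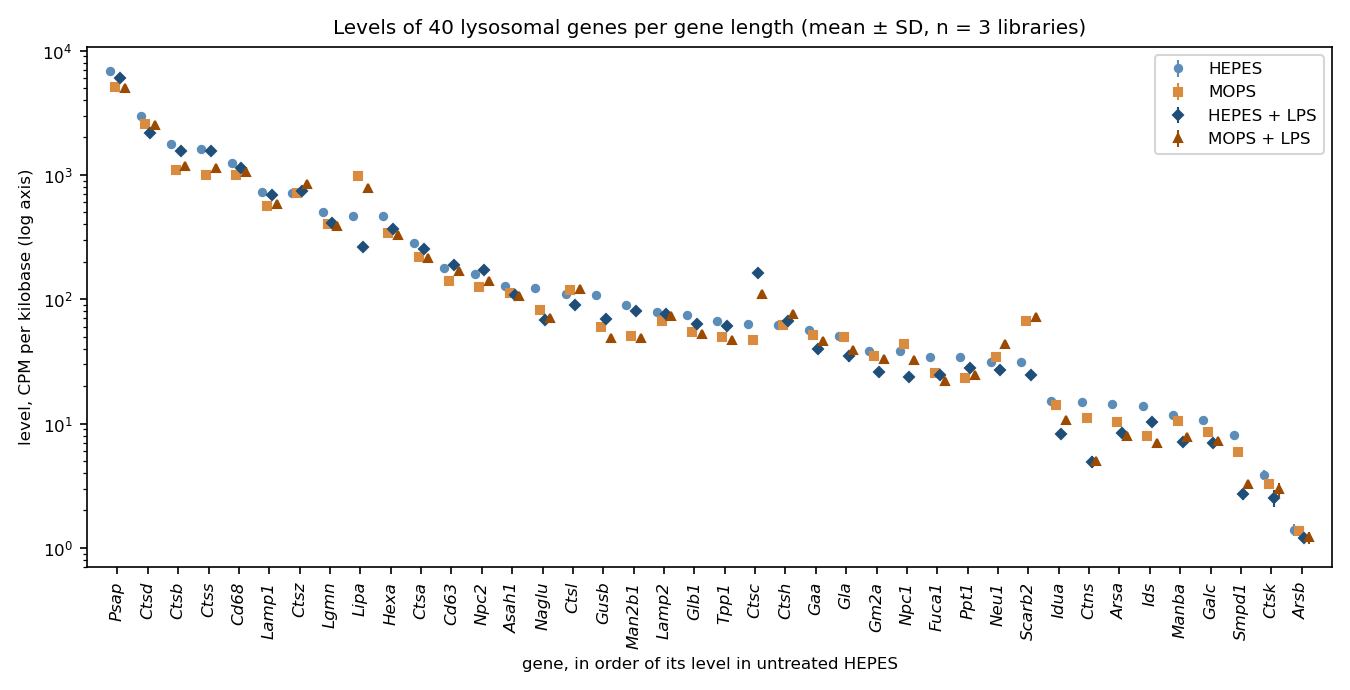
Mean level per gene length (CPM per kilobase, log axis) of the 40 genes in the 4 groups, with the SD over 3 libraries as bars, ordered by the level in untreated HEPES. Levels run from 6803 for Psap to 1.40 for Arsb, and Lipa and Scarb2 stand out by their higher points in both MOPS groups.

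Together the 40 genes took 6.71% to 6.77% of all counts in the HEPES libraries and 5.36% to 5.43% in the MOPS libraries. With LPS the share was 3.82% to 3.96% in HEPES and 3.68% to 3.94% in MOPS. The share was thus lower in every MOPS than in every HEPES library without LPS, lower in every library with LPS than in every one without, and overlapped between the media with LPS. Psap, Ctsb and Ctsd alone held 4.34% to 4.39% of counts in HEPES and 2.19% to 2.37% in MOPS with LPS. A share of counts falls when other genes rise. On the TMM scale the summed level of the 40 genes was 55460 to 56910 CPM in HEPES, 43930 to 44530 in MOPS, 47700 to 49480 in HEPES with LPS and 43760 to 46080 in MOPS with LPS, so that the gap between untreated and LPS libraries was smaller on that scale, and in MOPS the ranges overlapped.

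**Figure D2:**
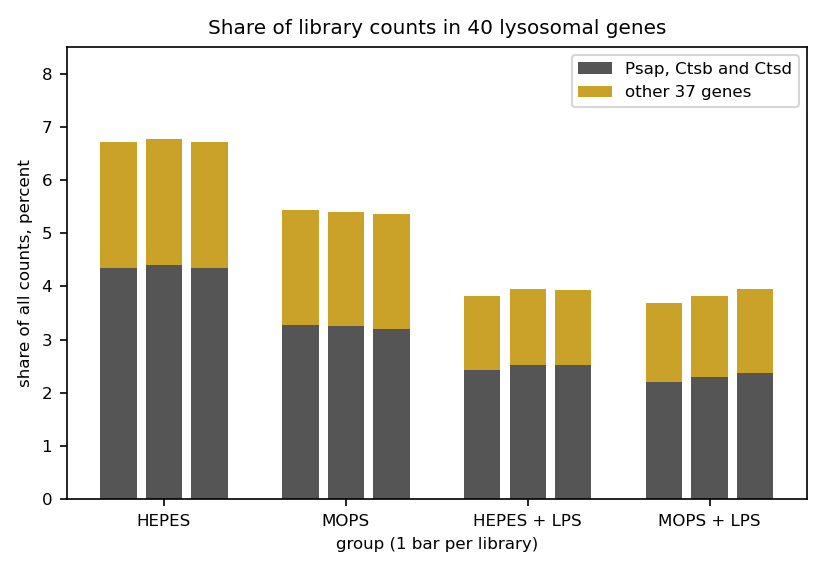
Percent of all counts of each library (1 bar per library) that fell in the 40 genes, split into Psap, Ctsb and Ctsd and the other 37. The bars are highest in untreated HEPES (6.71% to 6.77%) and overlap between the 2 groups with LPS.

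The libraries held 20114613 to 24734853 counts each. Of 10 peritoneal macrophage markers all 10 were tested and their summed level was 25049 to 26406 CPM in HEPES, 16324 to 16534 in MOPS, 33527 to 35211 in HEPES with LPS and 21370 to 24317 in MOPS with LPS, most of it from Lyz2. B cell markers, 10 of 10 detected, summed to 111 to 186 CPM in HEPES, 220 to 229 in MOPS, 35.8 to 42.7 in HEPES with LPS and 130 to 143 in MOPS with LPS. T and NK cell markers, 7 of 8 detected with Ncr1 at 0, summed to 4.94 to 6.08 CPM in HEPES, 1.74 to 2.93 in MOPS, 3.43 to 4.73 in HEPES with LPS and 1.54 to 2.13 in MOPS with LPS. Granulocyte and mast cell markers, 9 of 10 detected with Ly6g at 0, summed to 27.6 to 28.5, 27.4 to 30.7, 32.7 to 39.6 and 31.4 to 45.6 CPM in the same order of groups. Markers of dendritic cells and small peritoneal macrophages, 9 of 9 detected, summed to 227.3 to 249.9, 213 to 233, 326 to 391 and 286 to 306 CPM, and mesothelial, stromal and endothelial markers, 9 of 9 detected, to 4.96 to 6.96, 6.47 to 7.94, 6.70 to 7.17 and 6.66 to 9.10 CPM. Without LPS the sums of macrophage, B cell and T and NK cell markers did not overlap between the media, while those of the other 3 lists did. The gap in the macrophage sum lay mostly in the lysozyme gene Lyz2, at a mean of 21980 CPM in HEPES and 12600 in MOPS. Cd14, also in that sum, had means of 517 CPM in HEPES, 605 in MOPS, 6943 in HEPES with LPS and 4816 in MOPS with LPS. By the test described below, without LPS 5 of the 10 macrophage markers were higher in MOPS and 3 lower, with a median log2 change of 0.02. Of the 10 B cell markers 6 were higher, among them Ighm at a mean of 52.9 CPM in HEPES and 114 in MOPS, and 1 (Cd22) was lower. The part of these markers in the values of the lysosomal genes was not tested. In such bulk samples, fewer cells of a type and less RNA per cell cannot be told apart.

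Without LPS, most of these genes were lower in MOPS than in HEPES, and 5 were higher. The series title poses the question as one of extracellular acidity and macrophage responsiveness. By edgeR's quasi-likelihood test, with Benjamini-Hochberg adjustment over all 14506 genes and a threshold of 0.05, 29 of the 40 genes were lower and 5 higher, while of all genes tested 25.4% were lower and 24.3% higher, 49.7% in all. The median log2 fold change was -0.34 over the 40 genes and -0.01 over all genes, and 33 of the 40 lay below the median of all genes. Most changes were small: 5 genes were lower and 2 higher by at least 1.5-fold, against 10.1% and 6.62% of all genes. In 35 of the 40 genes the MOPS and HEPES libraries did not overlap, as in 57.6% of all genes tested.

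Scarb2 and Lipa were the 2 genes more than 2-fold higher in MOPS. Scarb2, the membrane protein that carries the enzyme glucocerebrosidase to the lysosome, was at 201, 197 and 186 CPM in the HEPES libraries and 415, 421 and 426 CPM in the MOPS libraries. All 3 MOPS libraries lay far above all 3 HEPES libraries, a log2 fold change of 1.11 ± 0.037 (standard error, as beside each log2 change that follows; adjusted p = 1.63e-21, edgeR). Lipa, lysosomal acid lipase, which frees cholesterol and fatty acids from engulfed lipoproteins, was at 1416, 1352 and 1395 CPM in HEPES and 2880, 2888 and 2941 CPM in MOPS (1.06 ± 0.042, adjusted p = 3.77e-19, edgeR). Npc1, the membrane transporter that exports cholesterol from the lysosome, was higher by less, at 414, 418 and 396 CPM in HEPES and 468, 471 and 475 CPM in MOPS (0.20 ± 0.036). Its groups did not overlap either. The sialidase gene Neu1 (0.14 ± 0.042) and the endopeptidase gene Ctsl (0.13 ± 0.037) completed the genes that were higher. In the mm10 coordinates of the table, Scarb2 is ENSMUSG00000029426 on chromosome 5 from 92441314 to 92506833 and Lipa is ENSMUSG00000024781 on chromosome 19 from 34492318 to 34527474.

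Among genes lower in MOPS, Gusb, Man2b1 and Ids were the farthest. Gusb encodes beta-glucuronidase, which trims glycosaminoglycans, and was at 486, 487 and 494 CPM in HEPES and 270.3, 272 and 269 CPM in MOPS (-0.85 ± 0.036, adjusted p = 1.06e-18, edgeR). Man2b1, lysosomal alpha-mannosidase, was at 749.6, 718 and 707 CPM in HEPES and 413, 404 and 407 CPM in MOPS (-0.83 ± 0.036). Ids, the sulfatase of heparan and dermatan sulfate, was at 74.0, 70.0 and 68.5 CPM in HEPES and 36.8, 41.0 and 44.2 CPM in MOPS (-0.80 ± 0.057). In each of the 3 genes every MOPS library lay below every HEPES library. Gusb is ENSMUSG00000025534 on chromosome 5 from 129989011 to 130003049, Man2b1 is ENSMUSG00000005142 on chromosome 8 from 85083270 to 85098282 and Ids is ENSMUSG00000035847 on chromosome X from 70343069 to 70365084.

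By role, the cysteine cathepsins with legumain had 1 of 8 higher and 4 lower. Ctsb was at 10670, 10830 and 10485 CPM in HEPES and 6663, 6584 and 6568 CPM in MOPS (-0.69 ± 0.034), and Ctss, the cathepsin that stays active near neutral pH and processes invariant chain, was at 2181, 2243 and 2108 CPM and 1340, 1365 and 1361 CPM (-0.68 ± 0.039). Both were lower in MOPS with no overlap, as was Ctsc (-0.44 ± 0.042), the dipeptidyl peptidase that activates granule serine proteases, and Lgmn, the asparaginyl endopeptidase (-0.32 ± 0.036). Ctsh (-0.00 ± 0.04), Ctsz (0.00 ± 0.036) and Ctsk (-0.24 ± 0.13) did not pass the test. The other 3 proteases and the palmitoyl thioesterase Ppt1 were all lower, 4 of 4, from Ctsd at -0.22 ± 0.041 to Ppt1 at -0.55 ± 0.045, with Tpp1 at -0.44 ± 0.037 and Ctsa, the carboxypeptidase that also protects beta-galactosidase and sialidase, at -0.38 ± 0.036.

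The glycosidases had 1 of 8 higher, which was Neu1, and 6 lower. Hexa, the alpha subunit of beta-hexosaminidase, was at -0.46 ± 0.035, the beta-galactosidase gene Glb1 at -0.44 ± 0.04, the fucosidase gene Fuca1 at -0.43 ± 0.043, Manba at -0.17 ± 0.043 and the glycogen-degrading Gaa at -0.13 ± 0.038, while Gla (-0.03 ± 0.049) did not pass. Of the 6 enzymes of glycosaminoglycans and sulfated lipids, 4 were lower, with Naglu at -0.58 ± 0.041 and Arsa, which cleaves sulfatide, at -0.49 ± 0.051 beside Gusb and Ids. Idua (-0.09 ± 0.05) and Arsb (-0.03 ± 0.11) did not pass. Among lipid hydrolases and their activator proteins Lipa alone was higher, and 5 of 6 were lower: Psap, at 18518, 18960 and 18522 CPM in HEPES and 13942, 14090 and 14012 CPM in MOPS (-0.41 ± 0.034), the sphingomyelinase Smpd1 (-0.45 ± 0.074), the galactosylceramidase Galc (-0.33 ± 0.041), the ceramidase Asah1 (-0.18 ± 0.038) and the ganglioside activator Gm2a (-0.15 ± 0.042).

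The cholesterol exporters differed in direction. Npc1 was higher in MOPS while Npc2, the soluble protein that hands cholesterol to it, was lower (-0.36 ± 0.036), and so was Ctns, the cystine exporter (-0.44 ± 0.06). Of the 5 membrane glycoproteins Scarb2 was higher, and Lamp1 (-0.37 ± 0.036), Lamp2 (-0.24 ± 0.037), the tetraspanin Cd63 (-0.35 ± 0.039) and Cd68 (-0.33 ± 0.036) were lower. Cd68 was at 1548, 1585 and 1577 CPM in HEPES and 1225, 1255 and 1265 CPM in MOPS. Each of the 34 calls of this comparison was kept under every scaling, filter and tool tried and without each library in turn.

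**Figure D3:**
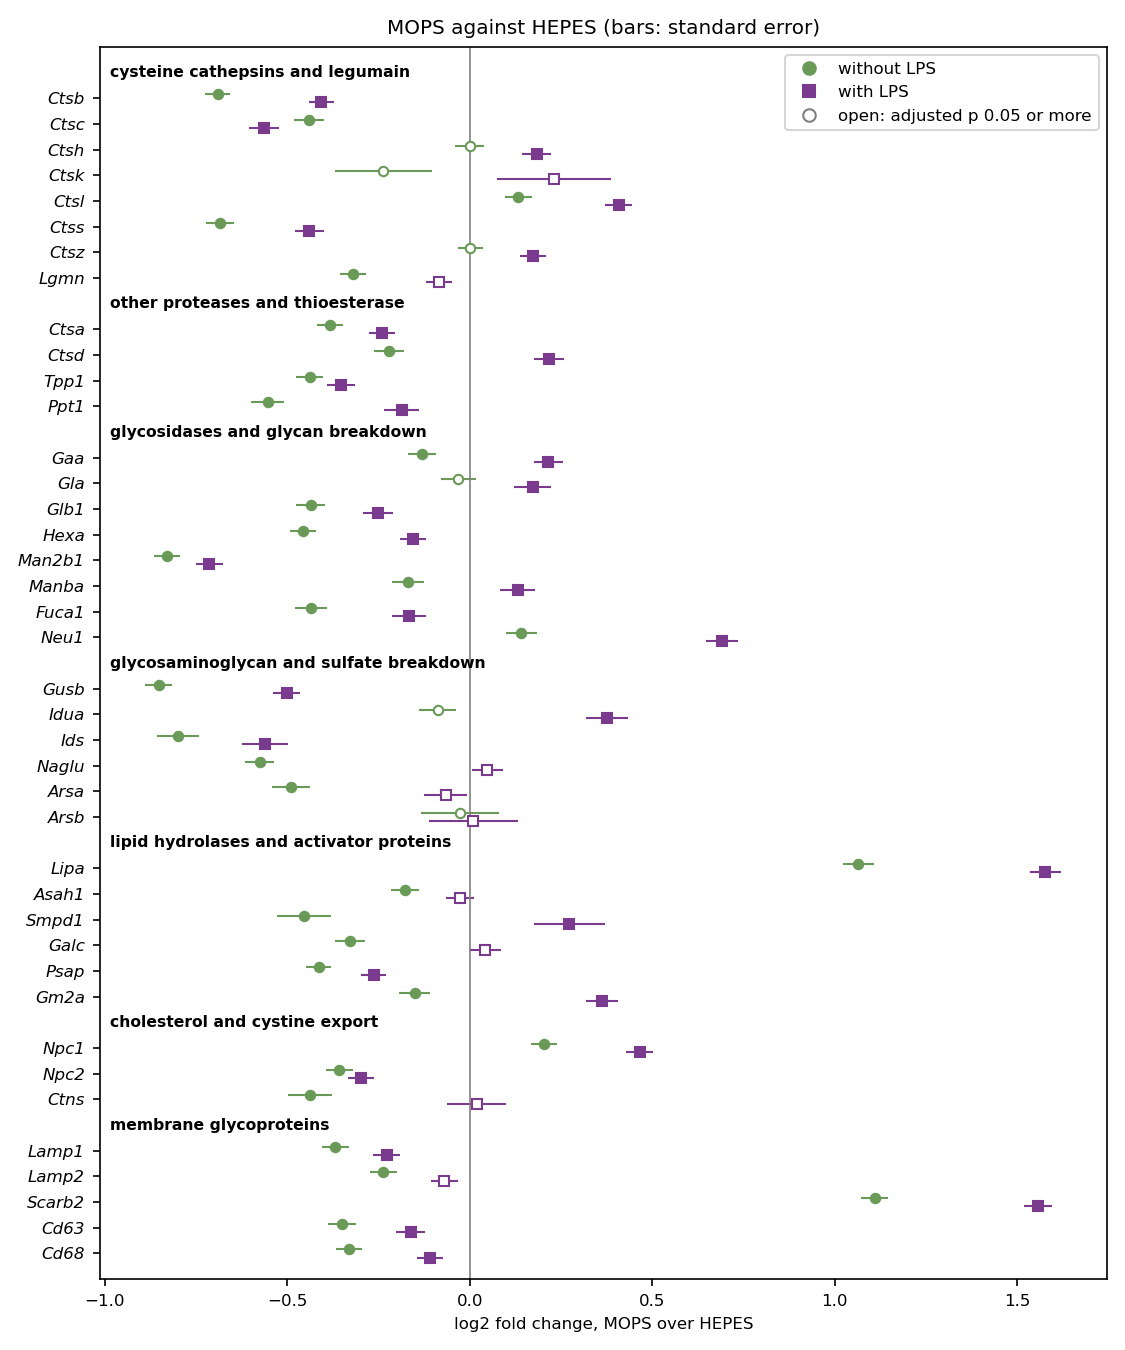
Log2 fold change of MOPS over HEPES for each of the 40 genes, grouped by role, without LPS (circles) and with LPS (squares), with the standard error as bars and open symbols where the adjusted p was 0.05 or more. Most circles lie left of 0 (29 genes lower, 5 higher), the squares split more evenly (17 lower, 14 higher), and Lipa and Scarb2 lie far to the right in both.

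Genes next to these in the pathway behaved as follows without LPS. Of 35 other lysosomal hydrolases 3 were higher and 21 lower (median -0.30), with the peptidase gene Dpp7 at -1.55 ± 0.049, the acid phosphatase gene Acp2 at -0.86 ± 0.042 and the lysozyme gene Lyz1 at -1.48 ± 0.055. Of 15 tested genes of tagging and sorting to lysosomes, 2 were higher and 8 lower (median -0.21). Sort1, the sorting receptor sortilin, was higher at 1.76 ± 0.04, and Gnptg, a subunit of the enzyme that builds the mannose phosphate tag, was lower at -0.93 ± 0.075. Of 22 tested other lysosomal membrane proteins, 4 were higher and 11 lower (median -0.17), with Gpnmb at -0.87 ± 0.034 and the metal transporter Slc11a1 at 0.55 ± 0.035. Of 3 tested cystatins, inhibitors of cysteine cathepsins, 0 were higher and 2 lower: Cstb at -0.51 ± 0.037 and Cst3 at -0.17 ± 0.04.

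With LPS, the media were split more evenly: 14 of the 40 genes were higher in MOPS and 17 lower, against 26.9% of all genes tested in each direction and 53.8% in all. With total counts alone 16 were higher and 12 lower, against 4885 and 2942 of all 14506 genes. On the TMM scale the median was -0.05 over the 40 genes and 0.00 over all. By at least 1.5-fold, 3 were higher and 1 lower, against 12.8% and 9.18% of all genes. The count lower was 3 without replicates 7 or 8 of MOPS with LPS or 12 of HEPES with LPS, and 2 without replicates 10 or 11 of the latter. In 32 of the 40 the groups did not overlap, as in 58.8% of all genes. These libraries are other ones than those compared without LPS. All 5 genes that were higher without LPS were also higher with it, and they made up 35.7% of the 14. Of all genes tested, 57.0% of those higher without LPS were higher with it, which is 51.3% of those higher with it. Of the 29 genes lower without LPS, 17 (58.6%) were lower with LPS too, which is all of the 17, while 7 (24.1%) did not pass the test and 5 (17.2%) were higher. Of all genes lower without LPS, 50.2% were lower with it (47.5% of those lower with it), 38.6% did not pass and 11.2% were higher.

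Lipa and Scarb2 led again. Lipa was at 716, 826 and 807 CPM in HEPES with LPS and 2237, 2400 and 2376 CPM in MOPS with LPS (1.58 ± 0.043, adjusted p = 3.76e-23, edgeR). Scarb2 was at 155, 155 and 152 CPM and 452, 453 and 456 CPM (1.56 ± 0.038, adjusted p = 1.14e-24, edgeR). Each MOPS library held more than 2 times the level of each HEPES library for both genes. Neu1, which removes sialic acid from glycans, was at 106, 95.4 and 101 CPM in HEPES with LPS and 169, 158 and 159 CPM in MOPS with LPS (0.69 ± 0.044). Npc1 (0.47 ± 0.037) and Ctsl (0.41 ± 0.037) were higher too. Neu1 is ENSMUSG00000007038 on chromosome 17 from 34931253 to 34935953.

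Man2b1, Ctsc and Ids were the farthest in the other direction. Man2b1 was at 643, 645 and 642 CPM in HEPES with LPS and 399, 377 and 401 CPM in MOPS with LPS (-0.71 ± 0.036). Ctsc was at 983, 969 and 897 CPM and 666, 629.6 and 629.7 CPM (-0.56 ± 0.041). Ids was at 48.3, 55.9 and 52.2 CPM and 35.2, 35.5 and 35.3 CPM (-0.56 ± 0.063). In all 3 the groups lay apart. Gusb (-0.50 ± 0.037), Ctss (-0.44 ± 0.039), Ctsb (-0.41 ± 0.034), Tpp1 (-0.35 ± 0.038), Npc2 (-0.30 ± 0.036), Psap (-0.26 ± 0.034), Glb1 (-0.25 ± 0.041), Ctsa (-0.24 ± 0.036) and Lamp1 (-0.23 ± 0.037) were lower as well. Ppt1 (-0.19 ± 0.047), Fuca1 (-0.17 ± 0.047), Cd63 (-0.16 ± 0.039), Hexa (-0.16 ± 0.036) and Cd68 (-0.11 ± 0.036) were lower by little, and none of these 5 passed when libraries were scaled by total counts alone, nor did Cd68 when only the LPS groups were fitted (adjusted p = 0.0614, edgeR).

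The 5 genes that were lower in MOPS without LPS and higher with it were Ctsd, Gaa, Manba, Smpd1 and Gm2a. Ctsd was at 4903, 5245 and 5226 CPM in HEPES with LPS and 5625, 5955 and 6303 CPM in MOPS with LPS (0.22 ± 0.041), and without LPS at 6963, 7116 and 6906 CPM in HEPES and 6233, 6086 and 5696 CPM in MOPS, so the order of the media was turned with no overlap either time. Gm2a was at 0.36 ± 0.044, Gaa at 0.22 ± 0.039, Smpd1 at 0.27 ± 0.098 and Manba at 0.13 ± 0.048. Manba lost its call without any 1 of the 6 libraries with LPS (adjusted p of 0.0805 to 0.224) and with DESeq2, and Smpd1 without replicates 7 or 9 of MOPS with LPS or 11 or 12 of HEPES with LPS (0.0707 to 0.2). Ctsh (0.18 ± 0.04), Ctsz (0.17 ± 0.036), Gla (0.17 ± 0.052) and Idua (0.38 ± 0.057), not called without LPS, were higher in MOPS with it. Gla lost the call without replicate 8 of MOPS with LPS or 10 or 12 of HEPES with LPS (0.0887 to 0.298).

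Naglu, the glucosaminidase of heparan sulfate, was at 182, 180.4 and 179 CPM in HEPES with LPS and 186, 183 and 191 CPM in MOPS with LPS, close values that did not pass the test (0.05 ± 0.042). Arsa (-0.07 ± 0.059), Asah1 (-0.03 ± 0.038), Galc (0.04 ± 0.043), Ctns (0.02 ± 0.08), Lamp2 (-0.07 ± 0.037), Lgmn (-0.08 ± 0.036), Ctsk (0.23 ± 0.16) and Arsb (0.01 ± 0.12) did not pass either. Naglu and Galc were called higher with total counts alone. Lgmn was called lower with RLE size factors, DESeq2, a filter of 10 counts in 3 libraries, or without any 1 of the 6 libraries with LPS. Lamp2 was called lower with DESeq2 or without replicates 7 or 8 of MOPS with LPS or 10 or 12 of HEPES with LPS (adjusted p of 0.00193 to 0.0487, edgeR), and Arsa without replicate 11 of HEPES with LPS (0.0484). Of the neighbouring genes, the other hydrolases had 13 of 35 higher and 12 lower (median -0.03), with Dpp7 at -1.46 ± 0.051 and the phospholipase gene Pla2g15 at 1.16 ± 0.045. With total counts alone 15 of these hydrolases were higher and 9 lower, with a median of 0.06 against 0.10 over all genes. Tagging and sorting genes had 8 of 15 higher and 3 lower (median 0.12), with Sort1 at 2.10 ± 0.042. The other membrane proteins had 11 of 22 higher and 3 lower (median 0.09), and the cystatins 0 of 3 higher and 1 lower.

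**Figure D4:**
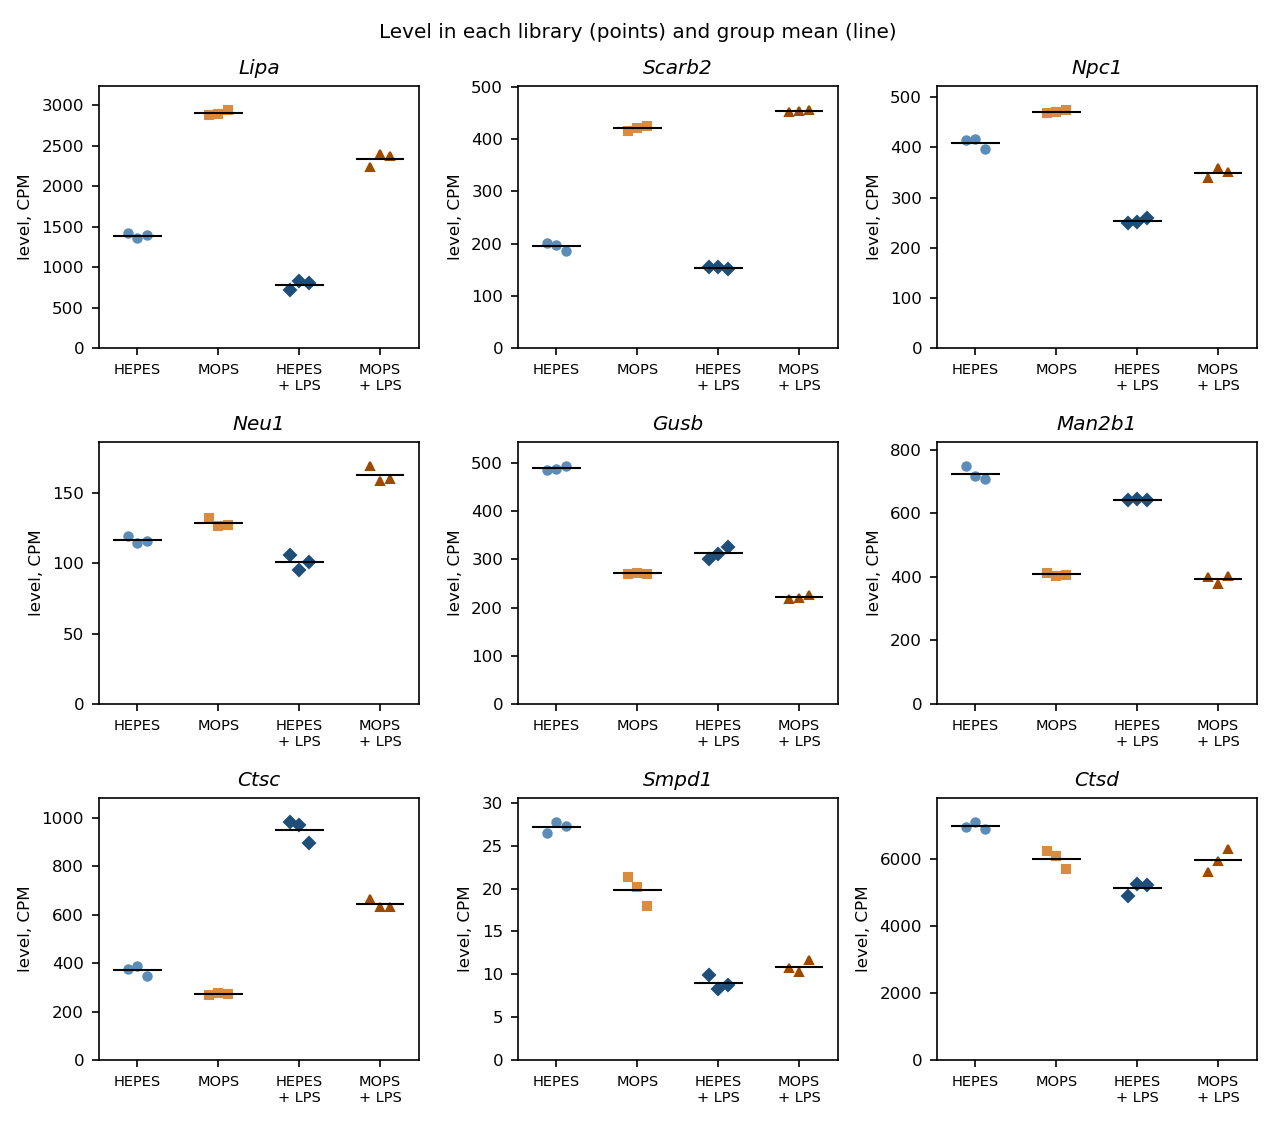
Level in CPM of 9 genes in each of the 12 libraries (points) with the group mean as a line, on axes that start at 0. Lipa and Scarb2 are high in both MOPS groups, Ctsc is high in both groups with LPS, Smpd1 is low there, and Ctsd changes its order of the media between untreated and LPS libraries.

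With LPS most of these genes were lower in HEPES and the calls were split in MOPS, while scaling by total counts alone turned all of them but Ctsc to lower in both media. In HEPES, 31 of the 40 genes were lower with LPS and 4 higher, against 41.2% and 35.6% of all genes tested (76.9% in all). In MOPS, 15 were lower and 11 higher, against 34.9% and 34.1% of all genes (69.0% in all). By at least 1.5-fold, 11 were lower and 1 higher in HEPES (29.4% and 22.3% of all genes, 51.7% in all), and 2 were lower and 1 higher in MOPS (20.7% and 17.5%, 38.2% in all). With total counts alone, 35 were lower by that fold in HEPES and 17 in MOPS, against 7507 and 6520 of all 14506 genes. The groups did not overlap in 36 of 40 genes in HEPES, as in 78.4% of all genes, and in 27 of 40 in MOPS, as in 71.8%. With total counts alone the median change of all genes moved from -0.08 to -0.67 in HEPES and from -0.03 to -0.55 in MOPS. The 40 genes were then 39 lower and 1 higher in either medium. Of all 14506 genes, 9666 were then lower and 2502 higher in HEPES, and 9506 and 2084 in MOPS. Set against the median of all genes, 32 of the 40 lay below it in HEPES and 23 in MOPS. Scaling moves the genes and this median nearly alike, so these counts could hardly change with it. The 2 LPS comparisons have no library in common with each other, but each uses libraries of both media comparisons.

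Ctsc rose with LPS in both media under each of the 3 scalings. It was at 375, 388 and 348 CPM in HEPES and 983, 969 and 897 CPM in HEPES with LPS (1.36 ± 0.042; edgeR adjusted p = 1.91e-23), and at 270.1, 275 and 274 CPM in MOPS and 666, 629.6 and 629.7 CPM in MOPS with LPS (1.23 ± 0.042). Every library with LPS lay above every library without it. Ctsc is ENSMUSG00000030560 on chromosome 7 from 88278085 to 88310888. In HEPES the others called higher were Npc2, at 865, 875 and 856 CPM without and 935, 942 and 907 CPM with LPS (0.10 ± 0.036), Ctsh, at 289, 289 and 264 CPM and 305, 303 and 287 CPM with overlapping groups (0.09 ± 0.04), and Cd63 (0.09 ± 0.039), and all 3 turned to lower under scaling by total counts alone and were not called without a filter on low counts. Ctsh lost its call without any 1 of the 3 MOPS libraries or HEPES replicate 6 (adjusted p of 0.0501 to 0.326), and Cd63 without any of these 4, HEPES replicate 4 or replicate 9 of MOPS with LPS (0.0533 to 0.212). In MOPS the genes higher beside Ctsc were Neu1 (0.34 ± 0.042), Cd63 (0.27 ± 0.039), Ctsh (0.27 ± 0.04), Ctsz (0.24 ± 0.036), Ctss (0.19 ± 0.039), Npc2 (0.16 ± 0.036), Lamp2 (0.12 ± 0.037), Ctsb (0.11 ± 0.034), Scarb2 (0.11 ± 0.036) and Cd68 (0.10 ± 0.036), all 10 of which turned to lower under scaling by total counts alone. Ctsb, Lamp2, Scarb2 and Cd68 were also not called in MOPS without a filter on low counts. Neu1 was at 132, 127 and 127 CPM in MOPS and 169, 158 and 159 CPM in MOPS with LPS, and Ctsh at 278, 284 and 279 CPM and 350.4, 332 and 335 CPM, with no overlap in either.

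Smpd1 and Ctns were lower with LPS in both media by the largest amounts of the 40. Smpd1, acid sphingomyelinase, was at 26.5, 27.8 and 27.3 CPM in HEPES and 9.96, 8.25 and 8.79 CPM after LPS there (-1.60 ± 0.086; edgeR adjusted p = 4.82e-17), and at 21.3, 20.2 and 18.0 CPM in MOPS and 10.7, 10.3 and 11.7 CPM in MOPS with LPS (-0.87 ± 0.085). Ctns, which exports cystine, was at 52.9, 50.9 and 47.4 CPM in HEPES and 15.1, 18.7 and 16.4 CPM with LPS (-1.59 ± 0.069), and at 35.3, 36.9 and 39.5 CPM in MOPS and 16.6, 17.2 and 17.1 CPM with LPS (-1.13 ± 0.07). The untreated and LPS libraries lay apart in both genes and both media. Idua, the iduronidase of glycosaminoglycans, was at 65.0, 61.9 and 63.5 CPM in HEPES and 33.5, 35.6 and 34.5 CPM with LPS (-0.88 ± 0.054), and at 58.3, 56.9 and 64.1 CPM in MOPS and 43.0, 44.2 and 47.3 CPM with LPS (-0.41 ± 0.053). Npc1, higher in MOPS than in HEPES with and without LPS, was lower with LPS in each medium (-0.70 ± 0.037 in HEPES and -0.43 ± 0.036 in MOPS). Smpd1 is ENSMUSG00000037049 on chromosome 7 from 105554360 to 105558389, Ctns is ENSMUSG00000005949 on chromosome 11 from 73183596 to 73199042 and Idua is ENSMUSG00000033540 on chromosome 5 from 108660331 to 108684557.

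The enzymes of glycosaminoglycans and sulfated lipids were lower with LPS in 5 of 6 in each medium, and Arsb did not pass in either. In HEPES their log2 changes ran from -0.88 (Idua) to -0.22 (Arsb), and in MOPS from -0.41 (Idua) to -0.18 (Arsb). Naglu was at 306, 332 and 339 CPM in HEPES and 182, 180.4 and 179 CPM with LPS (-0.85 ± 0.041), and at 226, 222 and 208 CPM in MOPS and 186, 183 and 191 CPM with LPS (-0.23 ± 0.042). Lipid hydrolases and activators were lower in 6 of 6 in HEPES and in 4 of 6 in MOPS, where Psap (-0.03 ± 0.034) and Gm2a (-0.06 ± 0.042) did not pass. Lipa was lower with LPS in both media (-0.83 ± 0.043 in HEPES and -0.31 ± 0.042 in MOPS). Glycosidases were lower in 8 of 8 in HEPES, from -0.71 (Manba) to -0.17 (Man2b1), and in MOPS 4 of 8 were lower and 1 higher. The 4 other proteases and thioesterase were all lower in HEPES, from -0.45 (Ctsd) to -0.16 (Tpp1), and none of the 4 passed in MOPS, where Ctsd was at -0.01 ± 0.041. Cysteine cathepsins with legumain had 2 of 8 higher and 4 lower in HEPES and 5 higher and 0 lower in MOPS, and the membrane glycoproteins 1 of 5 higher and 2 lower in HEPES and 4 higher and 0 lower in MOPS. Asah1 in MOPS (-0.09 ± 0.038) lost its call without any 1 of 6 libraries, which were the 3 of MOPS, HEPES replicate 5 and replicates 7 and 8 of MOPS with LPS (adjusted p of 0.0504 to 0.207). Ids in MOPS (-0.20 ± 0.062) lost it without MOPS replicate 3 (0.0553), Cd68 in MOPS without MOPS replicate 1 or replicate 9 of MOPS with LPS (0.0857 to 0.168), and Cd68 in HEPES (-0.12 ± 0.036) without any 1 library of HEPES with LPS (0.0623 to 0.114).

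**Figure D5:**
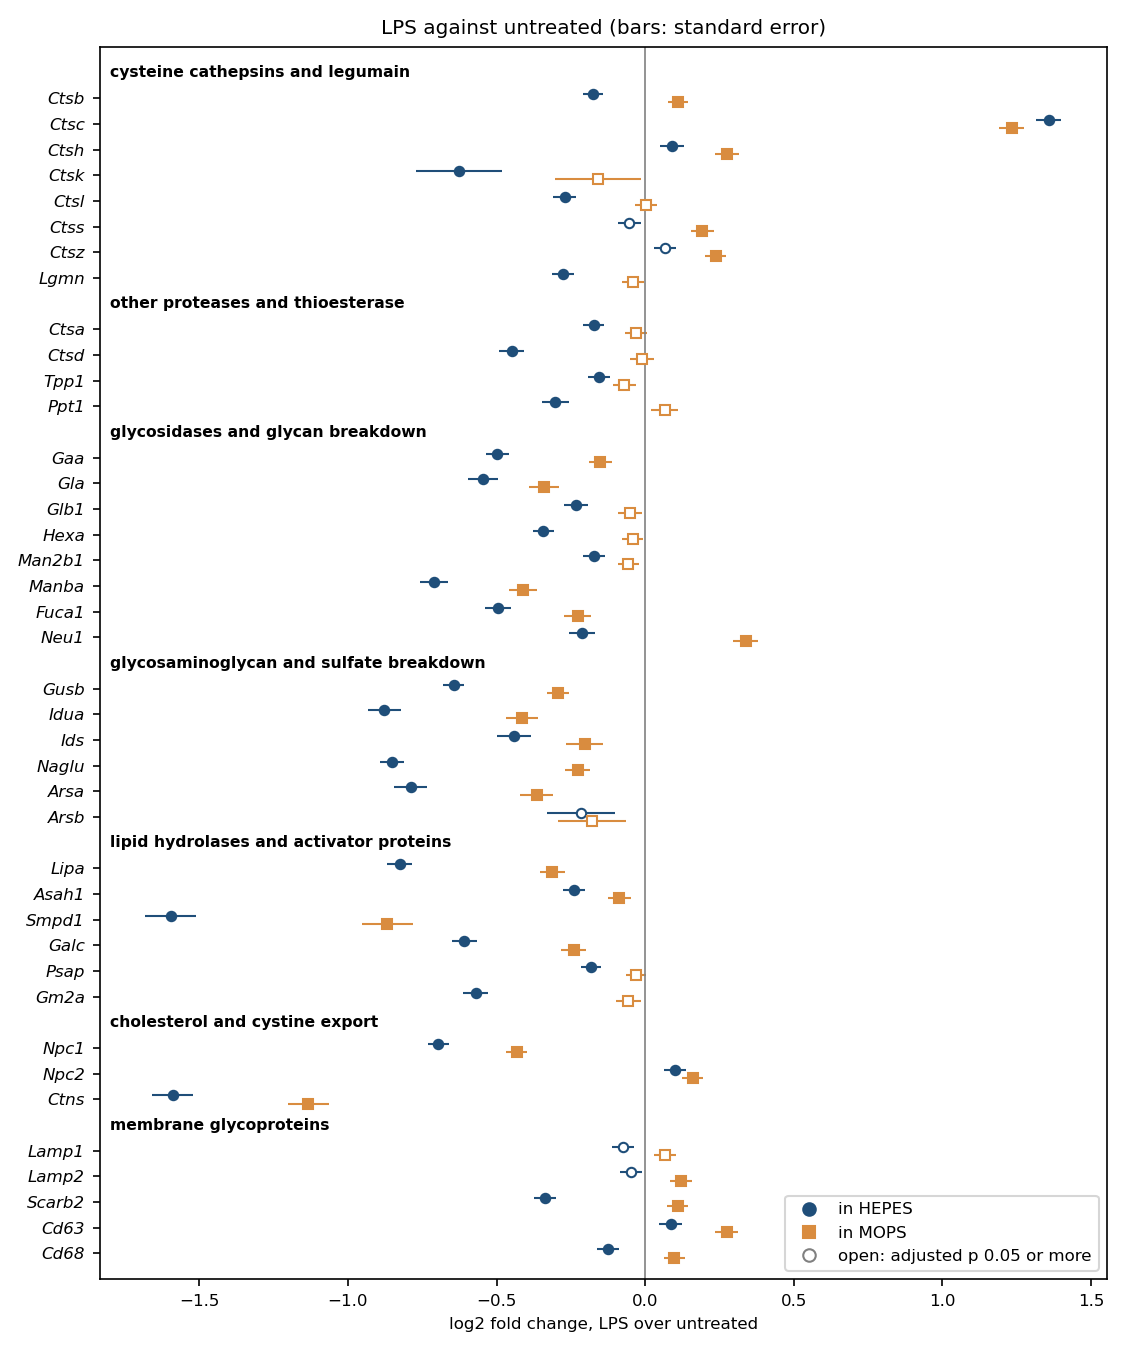
Log2 fold change of LPS over untreated for each of the 40 genes, grouped by role, in HEPES (circles) and MOPS (squares), with the standard error as bars and open symbols where the adjusted p was 0.05 or more. Ctsc lies far right in both media and Smpd1 and Ctns far left. With scaling by total counts alone, which is not drawn, every gene but Ctsc was lower with LPS in both media. Of all 14506 genes tested, 9666 were then called lower in HEPES and 9506 in MOPS.

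The neighbouring genes under LPS were also mixed on the TMM scale, and mostly lower with total counts alone, for which the counts stand in brackets. Under that scaling most of all 14506 genes were lower too: 9666 were lower and 2502 higher in HEPES, and 9506 and 2084 in MOPS. Other lysosomal hydrolases had 6 of 35 higher and 19 lower in HEPES (median -0.15) [4 and 31], and 12 higher and 7 lower in MOPS (median 0.01) [6 and 27], with Pla2g15 at -2.40 ± 0.044 in HEPES and -1.34 ± 0.04 in MOPS. Tagging and sorting genes had 5 of 15 higher and 8 lower in HEPES (median -0.52) [0 and 14], and 6 higher and 9 lower in MOPS (median -0.26) [0 and 13], with Cln8, a carrier of hydrolases out of the endoplasmic reticulum, at -2.23 ± 0.047 and -1.99 ± 0.046. The other membrane proteins had 5 of 22 higher and 14 lower in HEPES (median -0.46) [2 and 20], and 6 higher and 9 lower in MOPS (median -0.06) [2 and 18]. Slc15a3, a peptide and histidine transporter, was at 2.29 ± 0.045 in HEPES and 2.11 ± 0.045 in MOPS, and was higher with total counts alone too (1.70 and 1.60). The cystatins had 3 of 3 higher in HEPES [0 higher and 1 lower] and 2 of 3 in MOPS [1 higher and 1 lower], with Cstb at 0.60 ± 0.037 and 0.73 ± 0.037, and with total counts alone at 0.02, which did not pass, and 0.22.

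The interaction term compares the LPS change in MOPS with that in HEPES, or equally the effect of the medium with LPS and without it. It was positive in 34 of the 40 genes and negative in 0 by the same test, against 21.9% and 17.6% of all genes tested (39.4% in all). The median was 0.27 over the 40 genes and 0.06 over all genes. Smpd1 (0.73 ± 0.12) and Naglu (0.62 ± 0.059) reached 1.5-fold, against 9.86% of all genes in that direction and 4.31% in the other. Neu1 (0.55 ± 0.061) came next. Without replicate 7 of MOPS with LPS or replicates 10, 11 or 12 of HEPES with LPS, 1 gene reached that fold. With total counts alone 5 genes reached it, against 1773 of all 14506 genes in that direction and 481 in the other. In Smpd1 the LPS change was smaller in MOPS, in Naglu too, and in Neu1 it was of opposite sign, at -0.21 in HEPES and 0.34 in MOPS, though negative in both (-0.80 and -0.18) with total counts alone. The 6 genes that did not pass were Ctsk (0.47 ± 0.21), Man2b1 (0.12 ± 0.051), Tpp1 (0.09 ± 0.053), Npc2 (0.06 ± 0.051), Arsb (0.04 ± 0.16) and Ctsc (-0.12 ± 0.058), the last the 1 gene of the 40 with a negative value. With RLE size factors 28 were positive and Ctsc was negative, and without replicate 12 of HEPES with LPS 23 were positive and 1 negative, so the count moved with scaling and libraries. Ctsc was also called negative without HEPES replicate 5 or replicates 7 or 8 of MOPS with LPS. The median of the 40 genes lay 0.21 above that of all genes. Scaling moves all genes nearly alike, so this distance could hardly change with it and is no check of the scaling.

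Of the neighbouring genes, the interaction was positive in 19 of 35 other hydrolases and negative in 1 (median 0.21), positive in 8 of 15 tagging and sorting genes and negative in 1 (median 0.24), positive in 14 of 22 other membrane proteins and negative in 3 (median 0.32), and positive in 1 of 3 cystatins (with RLE size factors, 15, 8, 14 and 0 were positive in the same order). Pla2g15 was at 1.06 ± 0.059 and the amino acid transporter gene Slc36a1 at 1.01 ± 0.077.

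Some counts may be shared with other genes, since the strand setting of the counting is not known. Ppt1 overlaps Cap1 on the opposite strand, which holds 545% of its count and changed by -0.05 between the media without LPS. Ctsa overlaps Pltp (26.7% of its count, opposite strand, 0.78 in that comparison), Idua overlaps Dgkq (32.2%, opposite strand, 0.13), Npc1 overlaps Rmc1 (10.2%, opposite strand, 0.33), and Glb1 overlaps Tmppe on the same strand (18.3%, -0.40). Rmc1 was at 0.72 between the media with LPS, 0.40 in the interaction, and with LPS at 0.06 in HEPES and 0.46 in MOPS. Tmppe was at -0.55, -0.16, -1.15 and -1.31 in the same order. Cd63 has the pseudogene copy Cd63-ps, with 7.70% of its count. Each percentage sets the whole count of the other gene against the whole count of the gene described here. How many reads are shared was not measured, so the values of these 6 genes are uncertain to an unknown extent.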

How the data were processed

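RNA-seq libraries of cultured peritoneal macrophages, 3 in each of 4 groups, were grouped by the titles and characteristics in the labels. The deposited table holds raw counts per gene, per the file headers, with gene length and coordinates. The submitters' processing notes name CASAVA 1.8, HISAT2 2.0.5, featureCounts 1.5.0-p3 and mm10 without roles. Strand setting and annotation release were not given in the sources used here. Counts were fitted in R 4.3.3 with edgeR 4.0.16: filterByExpr left 14506 genes, libraries were scaled by TMM, and a robust quasi-likelihood model of the 4 groups (8 residual degrees of freedom) was fitted to all 12 libraries. The threshold was an adjusted p (Benjamini-Hochberg) of 0.05. Standard errors are approximate, |log2 change| over the root of F. Pairs of libraries within a group gave chi-square over degrees of freedom from 2.66 to 6.54, above counting error. The fit was tested on simulated data. Alternatives were RLE factors, total counts, DESeq2 1.42.0, filters, a fit without robust, fewer groups and each library left out. The genes, lists and rules were chosen with earlier results of these data known. Genes shown with every library are, per comparison, the 3 farthest called in each direction, plus the 5 highest per length. A symbol held by several IDs went to the ID with most counts.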

Additional observations from a re-analysis of the deposited data

Results flagged for a closer look

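The difference between the effect of the medium with LPS and without it passed the interaction test of edgeR in 34 of the 40 genes (adjusted p under 0.05), all positive, and each value is a log2 difference: the response to LPS in MOPS less the response in HEPES. Among cysteine cathepsins and legumain the values were 0.28 (Ctsb), 0.18 (Ctsh), 0.28 (Ctsl), 0.24 (Ctss), 0.17 (Ctsz) and 0.24 (Lgmn). The other proteases and thioesterase were at 0.14 (Ctsa), 0.44 (Ctsd) and 0.37 (Ppt1). Glycosidases were at 0.35 (Gaa), 0.20 (Gla), 0.18 (Glb1), 0.30 (Hexa), 0.30 (Manba), 0.27 (Fuca1) and 0.55 (Neu1). Enzymes of glycosaminoglycans and sulfated lipids were at 0.35 (Gusb), 0.46 (Idua), 0.24 (Ids), 0.62 (Naglu) and 0.42 (Arsa). Lipid hydrolases and activators were at 0.51 (Lipa), 0.15 (Asah1), 0.73 (Smpd1), 0.37 (Galc), 0.15 (Psap) and 0.51 (Gm2a). The exporters were at 0.26 (Npc1) and 0.46 (Ctns), and the membrane glycoproteins at 0.14 (Lamp1), 0.17 (Lamp2), 0.45 (Scarb2), 0.19 (Cd63) and 0.22 (Cd68).

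Under other settings, RLE size factors and DESeq2 both left Ctsa, Gla, Ids, Asah1 and Lamp1 without a call, RLE alone Psap and DESeq2 alone Glb1. In 11 of the 34 genes the call was lost without at least 1 library, and in 23 it was kept without each library in turn. Without all but 2 of the libraries tried 1 at a time, Ctsa (adjusted p up to 0.303; kept without MOPS replicate 2 or HEPES replicate 4) and Lamp1 (up to 0.326; kept without MOPS replicate 1 or HEPES replicate 6) were not called. Psap lost the call without any 1 of the 6 libraries with LPS (up to 0.192), and Asah1 without any of these 6, MOPS replicate 3 or HEPES replicate 4 (up to 0.264). Ids lost it without replicates 7 or 8 of MOPS with LPS, 10 or 12 of HEPES with LPS, MOPS 1 or HEPES 4 (up to 0.211), and Gla without replicates 8 or 9, 10 or 12, or MOPS 2 (up to 0.299). Lamp2 lost it without replicates 7, 8, 10 or 12 (up to 0.218), Ctsz without 7, 10, 11 or 12 (up to 0.0888), Glb1 without 9, 10, 11 or 12 (up to 0.119), Ctsh without 7, 11 or 12 (up to 0.165) and Cd63 without 8, 10 or 12 (up to 0.157).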

How the results depend on the processing

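The 34 calls between the media without LPS were kept under every alternative run. Scaling by total counts alone changed the LPS comparisons most. In HEPES it gave 1 gene higher, 36 changed at least 1.5-fold and 35 lower by that fold. In MOPS it gave 40 called, 1 higher and 39 lower, with 18 changed at least 1.5-fold and 17 lower by that fold. Of all 14506 genes, 9666 were then lower in HEPES, 7507 by that fold, and 9506 and 6520 in MOPS. In the interaction total counts alone gave 5 genes of at least 1.5-fold, all 5 higher, against 1773 of all 14506 genes higher and 481 lower. Genes turned to lower under it were, in HEPES, -0.49 (Ctsh), -0.52 (Ctsz), -0.48 (Npc2), -0.50 (Cd63), and in MOPS, -0.40 (Ctsb), -0.24 (Ctsh), -0.51 (Ctsl), -0.32 (Ctss), -0.28 (Ctsz), -0.45 (Ppt1), -0.18 (Neu1), -0.35 (Npc2), -0.45 (Lamp1), -0.39 (Lamp2), -0.40 (Scarb2), -0.24 (Cd63), -0.41 (Cd68). With no filter on low counts 1 gene was higher with LPS in HEPES and 7 in MOPS, and with the fit without robust 2 were higher in HEPES. RLE size factors and DESeq2 each gave 1 gene with a negative interaction, Ctsc.

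Leaving out 1 library at a time gave these ranges. With LPS, 1 to 3 genes were lower in MOPS by at least 1.5-fold. With LPS in HEPES, 2 to 5 genes were higher. The interaction was positive in 23 to 33 genes and negative in 0 to 1, and 1 to 2 genes reached 1.5-fold, all higher. No paired analysis was possible because the replicate numbers 1 to 12 are each used once, so no 2 groups share a number. Genes with few counts, such as Arsb, Ctsk and Smpd1, had the widest errors.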
